A study of Mus musculus with 15 samples.

Results

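Smooth muscle contractile genes were examined in foam cells, the lipid-laden cells of atherosclerotic lesions, from mice lacking apolipoprotein E. The set was a list of 10 genes: Acta2, Tagln, Myh11, Cnn1, Mylk, Myl9, Des, Lmod1, Smtn and Myocd. All 10 were among the 18193 genes on the array, with 17 of its 45037 probe sets, counting probe sets assigned to exactly 1 gene. Where a gene had several probe sets, the one with the highest mean over all arrays stood for it.

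Each of the 15 arrays held amplified RNA of lesional cells cut by laser from the aortic sinus of ApoE-/- mice on the C57BL/6 strain, with 5 arrays for each diet. CHOW mice ate regular chow for 22 weeks, 2w-WD mice ended with 2 weeks of western-type diet, and 14w-WD mice had 8 weeks of chow and then 14 weeks of that diet. The age of the 2w-WD mice is uncertain, because chow lasted 20 weeks by the sample labels and 22 by the series text. All groups carry the Apoe deletion, so no array came from mice with the gene intact, and the labels do not say which arrays share a mouse. The p-values below therefore measure the spread between arrays, which may be technical in part. In captured tissue, fewer cells of a type and less RNA per cell cannot be told apart.

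Smooth muscle cells shorten when calcium and calmodulin switch on myosin light chain kinase, which phosphorylates the regulatory light chain of myosin and lets the motor pull on actin filaments. The genes of this machinery share a switch: serum response factor binds CArG boxes near their starts, and its partner myocardin raises their transcription in the vessel wall. Smooth muscle cells in lesions are known to lower these genes as they leave the contractile state, and some lesional cells that hold lipid come from smooth muscle.

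Levels are given as log2(intensity + 16) of the deposited linear intensities. This scale understates the change of dim genes, and levels of different probe sets cannot be set against each other. Genes with a mean level of at least 5.66, which was the median of all probe sets and equals an intensity of 34.6, were tested with limma in 1 fit over all arrays. A gene was called where its p, adjusted by Benjamini and Hochberg over all 11925 tested genes, was under 0.05. Of the contractile genes 7 were tested (Acta2, Tagln, Myh11, Mylk, Des, Lmod1 and Myocd), and Cnn1, Myl9 and Smtn lay below the filter. Array medians ran from intensities of 31.7 to 38.2, and the bright share, meaning the percentage of probe sets whose intensity exceeded 100, averaged 21.7% ± 1.84 for CHOW, 20.9% ± 2.86 for 2w-WD and 24.8% ± 1.79 for 14w-WD (SD, n = 5 each).

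The label of the cells was macrophage or foam cell. The macrophage gene Adgre1, which encodes F4/80, was bright on all arrays, between 12.51 and 13.08. Not every macrophage gene was: of 15 listed, 14 passed the filter and Itgam did not, and Cd14 ran from 6.16 to 9.46. The captured material also held muscle transcripts. Myh6, the alpha myosin heavy chain of mouse heart muscle, ranged from 9.98 on CHOW replicate 4 to 14.69 in 2w-WD. Among the contractile genes, Acta2 lay between 12.33 and 13.80, whereas Cnn1, which encodes calponin and marks differentiated smooth muscle, never passed the filter level. The set was thus detected in part, and it is called by the genes in it rather than by a cell type.

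The regulatory sequence near the starts of these genes was searched for the CArG box, a stretch of A and T between a pair of C and a pair of G, which is the binding element of serum response factor. RefSeq windows of the build GRCm38.p6 were at hand for 7 of the genes; Tagln, Myh11 and Myocd were not in the table. Of these 7 windows, 250 bases upstream of the start, 1 held an exact box (Myl9) and 2 held a box that was exact or had 1 mismatch in its core (Myl9 and Acta2). Among all 32851 windows of this length 1.47% held an exact box, 8.59% an exact or 1-mismatch box and 0.67% at least 2 of these. The box reads alike on both strands, so 1 scan covered both. The windows below are those of both genes with a match and of Mylk, the 1 gene of the set that passed a test between diets. Those of Acta2, Mylk and Myl9 lie wholly or partly inside the annotated gene, which has an outer start as well. Capitals mark the boxes, and the window of Mylk has none. They lie on chr19:34255374-34255623 (minus strand) for Acta2, chr2:156775214-156775463 (plus strand) for Myl9 and chr16:34784700-34784949 (plus strand) for Mylk.
Acta2: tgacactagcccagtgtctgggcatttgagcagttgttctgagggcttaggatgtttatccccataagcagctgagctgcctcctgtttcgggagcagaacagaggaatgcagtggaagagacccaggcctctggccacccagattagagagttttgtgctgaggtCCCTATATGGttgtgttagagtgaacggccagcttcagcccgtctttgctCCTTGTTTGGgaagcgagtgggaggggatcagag
Myl9: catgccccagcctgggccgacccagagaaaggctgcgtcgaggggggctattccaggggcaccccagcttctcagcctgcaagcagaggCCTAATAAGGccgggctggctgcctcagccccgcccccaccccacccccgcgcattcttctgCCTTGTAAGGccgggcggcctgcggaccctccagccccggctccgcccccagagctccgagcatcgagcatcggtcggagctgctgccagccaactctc
Mylk: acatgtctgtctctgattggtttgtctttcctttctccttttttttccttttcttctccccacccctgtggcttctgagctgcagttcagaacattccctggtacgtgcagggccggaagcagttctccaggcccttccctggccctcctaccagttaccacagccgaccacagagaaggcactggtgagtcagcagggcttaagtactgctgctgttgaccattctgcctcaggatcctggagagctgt

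In Acta2 the boxes CCCTATATGG and CCTTGTTTGG, each with 1 core mismatch, end 75 and 25 bases upstream of the start. In Myl9 the exact box CCTAATAAGG ends 152 bases upstream and CCTTGTAAGG, with 1 core mismatch, ends 90 bases upstream. A match describes letters only and does not show that a factor binds there.

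**Figure D1:**
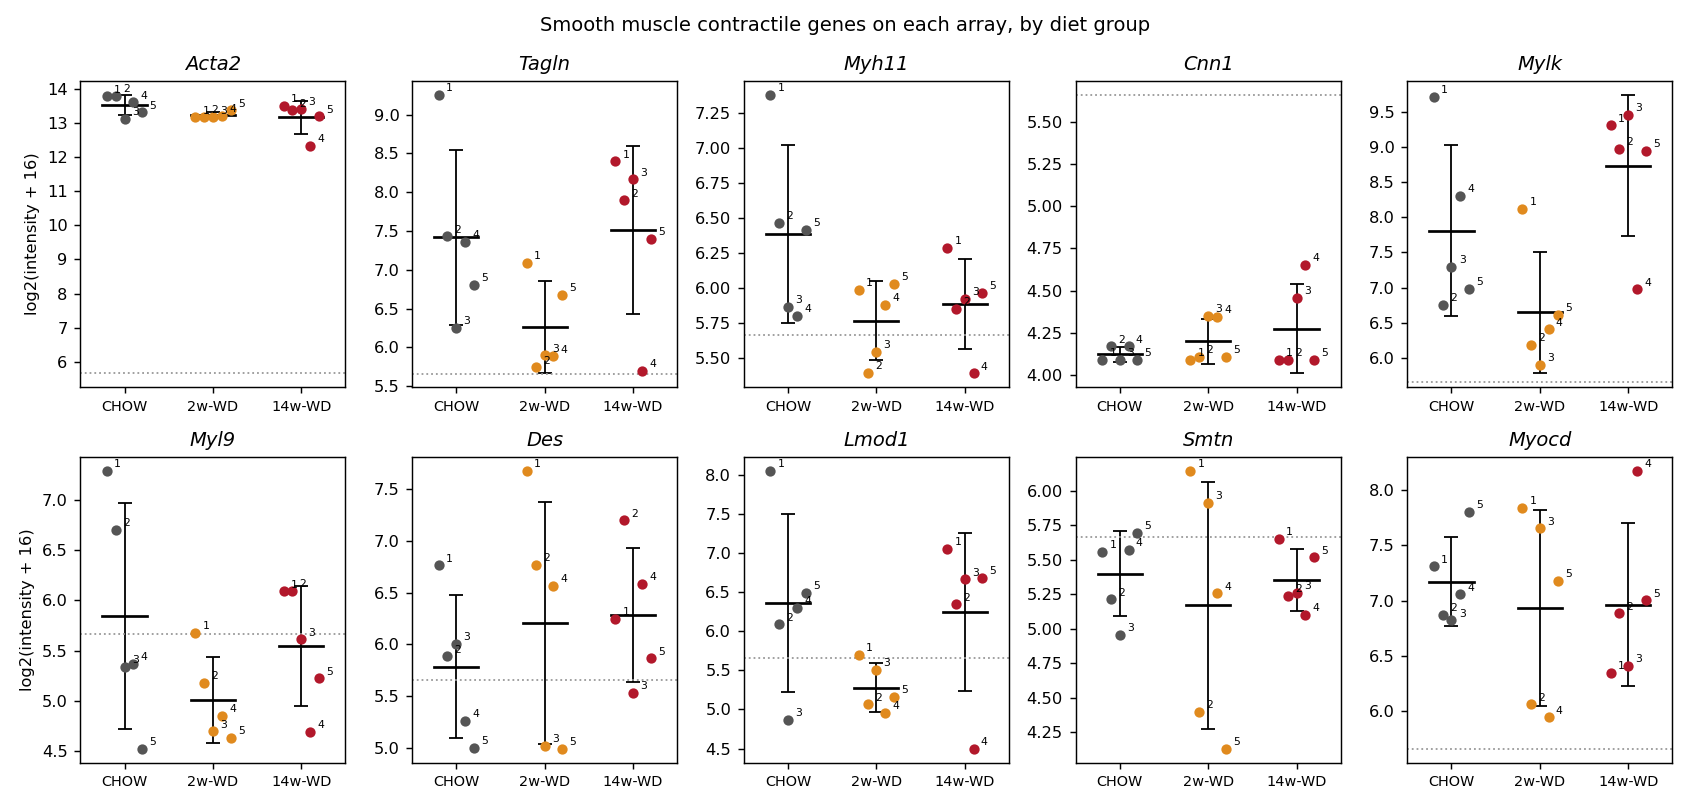
Level of each contractile gene on every array, as log2(intensity + 16), by diet group; numbered points are replicates, horizontal bars are means and error bars SDs (n = 5), and the dotted line is the filter level of 5.66. Mylk lies lowest in 2w-WD, and replicate 4 of 14w-WD is the lowest array of its group for Acta2, Tagln, Myh11, Mylk, Myl9, Lmod1 and Smtn.

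The filament proteins come first. Acta2 encodes the alpha actin of smooth muscle, the main thin filament protein of these cells. Its levels on CHOW replicates 1 to 5 were 13.79, 13.80, 13.12, 13.61 and 13.31. On 2w-WD arrays they were 13.18, 13.19, 13.17, 13.22 and 13.38, and on 14w-WD arrays 13.51, 13.38, 13.42, 12.33 and 13.20. The groups overlapped, the 2w-WD arrays lay within a narrow band, and 1 array of 14w-WD stood apart below the rest. A second Acta2 probe set, dimmer by far, averaged 5.57 ± 0.26 in 14w-WD and 6.15 ± 0.29 in CHOW (SD, n = 5 each), a log2 difference of -0.58 (SE 0.18). That difference had a limma adjusted p of 0.151 over the 22519 probe sets tested. The third Acta2 probe set lay mostly below the filter. The probe set that stands for the gene is of the kind whose probes can match more than 1 transcript, so a share of its signal may belong to other actins.

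Myh11 encodes the heavy chain of smooth muscle myosin, the motor of the thick filament. It had levels of 7.38, 6.47, 5.87, 5.80 and 6.41 on the CHOW arrays. On 2w-WD arrays it had 5.99, 5.39, 5.54, 5.88 and 6.03, and on 14w-WD arrays 6.29, 5.85, 5.92, 5.39 and 5.97. CHOW replicate 1 was highest of all, and the western diet groups lay close to the filter level, with 2 arrays of 2w-WD and 1 of 14w-WD at or below it. Myl9 encodes the regulatory light chain that the kinase phosphorylates. Its levels ran from 4.52 to 7.29 in CHOW, from 4.63 to 5.68 in 2w-WD and from 4.69 to 6.09 in 14w-WD, and only 5 of 15 arrays lay above the filter level. It was highest on replicates 1 and 2 of CHOW, 7.29 and 6.70, and the groups overlapped.

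Mylk encodes the myosin light chain kinase itself. Its levels on the CHOW arrays were 9.71, 6.76, 7.30, 8.30 and 6.98. On 2w-WD arrays they were 8.12, 6.19, 5.90, 6.41 and 6.62, and on 14w-WD arrays 9.30, 8.97, 9.46, 6.98 and 8.94. In 14w-WD 4 of 5 arrays lay above every 2w-WD array, and replicate 4 lay below 2w-WD replicate 1. Of the 2w-WD arrays 4 of 5 lay below every CHOW array, and those of 14w-WD lay within the range of CHOW. The spread over the 15 arrays was the widest of the set, 3.81 on the log2 scale.

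Actin-associated proteins followed. Tagln encodes transgelin, or SM22 alpha, an actin-bundling protein of smooth muscle. It had levels of 9.25, 7.43, 6.26, 7.36 and 6.80 in CHOW. In 2w-WD it had 7.09, 5.75, 5.90, 5.89 and 6.67, and in 14w-WD 8.40, 7.89, 8.17, 5.70 and 7.40. All but 1 of the 14w-WD arrays lay above every 2w-WD array, and the exception, replicate 4, was the lowest of all 15. Lmod1 encodes leiomodin, which starts new actin filaments in smooth muscle. Its levels were 8.05, 6.09, 4.87, 6.30 and 6.49 in CHOW, 5.70, 5.06, 5.51, 4.96 and 5.16 in 2w-WD, and 7.05, 6.34, 6.66, 4.50 and 6.68 in 14w-WD. As with Tagln, 4 of the 14w-WD arrays lay above all of 2w-WD and replicate 4 lay below it. In 2w-WD 4 of 5 arrays were at or below the filter level.

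Cnn1 encodes calponin, an actin-binding protein that restrains the myosin motor. It was at an intensity of 1 or less on 7 of 15 arrays, and its highest intensity on any array was 9.14, in 14w-WD. Smtn encodes smoothelin, a protein of the contractile cytoskeleton. Its levels ran from 4.96 to 5.69 in CHOW, from 4.13 to 6.14 in 2w-WD and from 5.10 to 5.65 in 14w-WD, with 3 of 15 arrays above the filter level. Neither gene was measured well enough for a statement on diet, and by exact permutation tests with 5 against 5 arrays none of the differences of Cnn1, Smtn or Myl9 had a p under 0.167.

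Des encodes desmin, the intermediate filament of smooth, heart and skeletal muscle. It had levels of 6.76, 5.89, 6.01, 5.27 and 5.00 in CHOW, 7.67, 6.77, 5.03, 6.57 and 4.99 in 2w-WD and 6.25, 7.19, 5.53, 6.58 and 5.87 in 14w-WD. The groups overlapped almost fully, and the 2w-WD arrays split into 3 high and 2 low ones. A second probe set averaged 5.86, 5.89 and 5.94 in CHOW, 2w-WD and 14w-WD. Myocd encodes myocardin, the partner of serum response factor in smooth and heart muscle. Its levels were 7.31, 6.87, 6.82, 7.06 and 7.80 in CHOW, 7.84, 6.07, 7.65, 5.95 and 7.18 in 2w-WD, and 6.35, 6.89, 6.41, 8.17 and 7.00 in 14w-WD. Its highest array was 14w-WD replicate 4, the array on which Acta2, Tagln and Lmod1 were lowest. The other Myocd probe set stayed at or below the filter level on every array.

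The long diet was first set against chow, which asks how foam cells of mice fed the diet for 14 weeks differ from those of mice never fed it. None of the 7 tested contractile genes was called by limma, where 0.00839% of all tested genes were, and none had an unadjusted p under 0.05, where 15.9% of all did. This holds for the probe sets that stand for the genes. The second Acta2 probe set, given above, had a limma unadjusted p of 0.00546 (adjusted p = 0.151). Among the 7 genes, closest to the threshold was Acta2, with a mean of 13.17 ± 0.48 in 14w-WD and 13.53 ± 0.30 in CHOW (SD, n = 5 each). Its difference was -0.36 on the log2 scale (SE 0.19, 95% interval -0.76 to 0.04, limma adjusted p = 0.359). Myh11 had means of 5.88 ± 0.32 in 14w-WD and 6.39 ± 0.64 in CHOW, a difference of -0.50 (SE 0.27, adjusted p = 0.367). The difference of Acta2 was -0.15 without 14w-WD replicate 4, and that of Myh11 was -0.25 without CHOW replicate 1. Mylk pointed the other way, with 8.73 ± 1.01 in 14w-WD and 7.81 ± 1.22 in CHOW, a difference of 0.92 (SE 0.58, 95% interval -0.31 to 2.15, adjusted p = 0.442). It was 1.40 without CHOW replicate 1 (adjusted p = 0.136) and was called with array weights, at 1.47 (adjusted p = 0.0238). With these weights 2234 of all tested genes were called in this comparison, beside 1 in the fit reported, so the call is not specific to Mylk. With the bright share as a covariate, a setting chosen after seeing the data, the difference of Mylk turned to -0.36 (adjusted p = 0.958). Over all settings its adjusted p ran from 0.0238 to 0.958. Tagln (0.09, SE 0.54) and Lmod1 (-0.11, SE 0.49) had means that nearly coincided, but their intervals, -1.04 to 1.22 and -1.15 to 0.92, do not exclude a sizeable change in either direction. The median difference of the 7 genes was -0.11, beside 0.16 for all tested genes. No contractile gene had groups that did not overlap, which 4.87% of all tested genes had.

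The short diet was set against chow to ask what 2 weeks of feeding did. No contractile gene was called, as was no other gene (0 of 11925, 0%). At an unadjusted p under 0.05 stood 3 of the 7 (42.9%), all lower in 2w-WD, beside 9.76% of all tested genes in either direction and 7.3% in that direction. These were Tagln, Lmod1 and Myh11. Tagln averaged 6.26 ± 0.59 in 2w-WD and 7.42 ± 1.13 in CHOW, a log2 difference of -1.16 (SE 0.54, 95% interval -2.29 to -0.03, limma adjusted p = 0.511). Lmod1 averaged 5.28 ± 0.31 in 2w-WD and 6.36 ± 1.14 in CHOW, a difference of -1.08 (SE 0.49, adjusted p = 0.511). Myh11 averaged 5.77 ± 0.28 in 2w-WD and 6.39 ± 0.64 in CHOW, a difference of -0.62 (SE 0.27, adjusted p = 0.507). Mylk had a difference as large as that of Tagln, -1.16, with a wider error (SE 0.58, adjusted p = 0.53), and Acta2 one of -0.30 (SE 0.19, adjusted p = 0.582). Of all 10 genes, 8 had a lower mean in 2w-WD than in CHOW, and Des and Cnn1 a higher one. The median over the 7 tested was -0.62, beside -0.10 for all tested genes. The groups overlapped for every contractile gene, as for all but 1.12% of the tested genes.

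These differences were smaller without CHOW replicate 1. It was the highest of all 15 arrays for Tagln, Myh11, Mylk, Myl9 and Lmod1, and with a bright share of 24.7% it was the brightest CHOW array. Without it, the difference of 2w-WD from CHOW was -0.70 for Tagln, -0.66 for Lmod1, -0.37 for Myh11 and -0.69 for Mylk. With the bright share as a covariate, a setting chosen after seeing the data, the differences were -0.88 for Tagln, -0.87 for Lmod1, -0.54 for Myh11 and -0.83 for Mylk, with limma adjusted p between 0.385 and 0.431. With the mean of the macrophage markers as a covariate they were -0.44, -0.64, -0.39 and -0.62 (adjusted p = 0.999 each).

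The long diet was then set against the short one. Mylk was the only contractile gene called, higher in 14w-WD, where 11.2% of all tested genes were called and 10.1% were called higher. Its mean was 8.73 ± 1.01 in 14w-WD and 6.65 ± 0.86 in 2w-WD (SD, n = 5 each), with a log2 difference of 2.09 (SE 0.58, 95% interval 0.86 to 3.31), which is 4.24-fold on this scale. The limma adjusted p was 0.0338, and the exact two-sided permutation test gave p = 0.0159, where 0.00794 is the smallest it can give. As the median tested gene was 0.23 higher in 14w-WD, the difference relative to it was 1.86. The share of contractile genes called, 1 of 7, is near the share of all genes, so no property of the set can be read from it.

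The call of Mylk rested on several arrays and on 1 probe set. Leaving out any of replicates 2, 3, 4 and 5 of 2w-WD or replicates 1, 2, 3 and 5 of 14w-WD ended it, with adjusted p between 0.0551 and 0.0908 and a difference of at least 1.90. Over all genes 164 to 909 were called in these fits, beside 1338 in the fit reported, so losing the call is not specific to Mylk. The call of Mylk held without 2w-WD replicate 1 (adjusted p = 0.00676), where 3536 genes were called. It also held without 14w-WD replicate 4 (adjusted p = 0.0142), where 1609 were. A second Mylk probe set averaged 7.24 in 14w-WD and 6.46 in 2w-WD, with a difference of 0.78 (SE 0.39, adjusted p = 0.179), and the third, near the filter, differed little. The mean of the probe sets gave 0.98 (adjusted p = 0.0524). Over all settings tried the adjusted p ran from 0.00176 to 0.815.

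**Figure D2:**
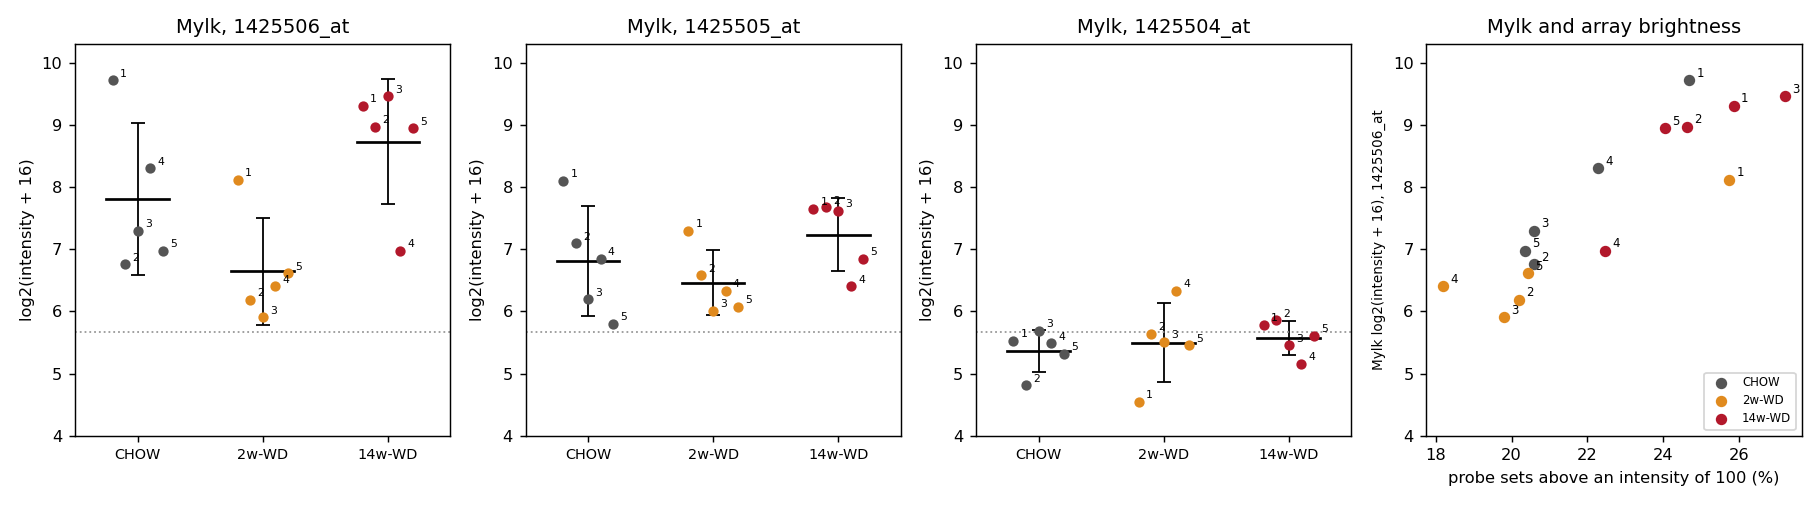
Levels of Mylk by probe set and diet group, as log2(intensity + 16), with means and SDs (n = 5) and the filter level as a dotted line; the right panel sets the level of the first probe set against the bright share of each array (probe sets over 100, in percent). The 4 highest 14w-WD arrays lie with CHOW replicate 1 and 2w-WD replicate 1 among the arrays of the highest share.

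Mylk moved with the brightness of the arrays. The bright share was 25.9%, 24.6%, 27.2%, 22.5% and 24.1% on the 14w-WD arrays and 25.7%, 20.2%, 19.8%, 18.2% and 20.4% on the 2w-WD arrays. Replicate 4 of 14w-WD, the dimmest of its group, had the lowest Mylk level there, and replicate 1 of 2w-WD, the brightest of its group, the highest. With this share as a covariate, a setting chosen after seeing the data, the difference of Mylk was 0.47 (adjusted p = 0.815). With the mean of the macrophage markers as a covariate it was 1.34 (adjusted p = 0.596). No gene at all was called in either fit. The bright share was itself higher on average in 14w-WD, so diet and brightness cannot be told apart by its fit. With quantile normalization or median centring Mylk stayed called, where 969 and 1166 of all genes were called. With the mean of the heart muscle markers as a covariate the difference of Mylk was 2.14 (adjusted p = 0.0366).

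Tagln and Lmod1 followed the same pattern with smaller differences. Tagln averaged 7.51 ± 1.08 in 14w-WD and 6.26 ± 0.59 in 2w-WD, with a log2 difference of 1.25 (SE 0.54, 95% interval 0.12 to 2.38, limma adjusted p = 0.12). Lmod1 averaged 6.25 ± 1.01 in 14w-WD and 5.28 ± 0.31 in 2w-WD, with a difference of 0.97 (SE 0.49, 95% interval -0.07 to 2.01, adjusted p = 0.181). Without 14w-WD replicate 4 both passed, Tagln with a difference of 1.71 (adjusted p = 0.0315) and Lmod1 with 1.41 (adjusted p = 0.0416). Both genes were lowest of their group on that array, so leaving it out raises their means there. Over all genes 1609 were called without it, beside 1338 with all arrays. Over all arrays left out in turn, the difference ran from 1.03 to 1.71 for Tagln (adjusted p up to 0.256) and from 0.77 to 1.41 for Lmod1 (adjusted p up to 0.354). With the bright share as a covariate it was -0.085 for Tagln and -0.055 for Lmod1, and with the macrophage mean 0.26 and 0.36. At an unadjusted p under 0.05 stood 2 of the 7 genes, Mylk and Tagln (28.6%), beside 32.1% of all tested genes.

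The other tested genes differed little between the long and the short diet. Acta2 had a difference of -0.06 (SE 0.19, 95% interval -0.46 to 0.34) and Myh11 one of 0.12 (SE 0.27, 95% interval -0.45 to 0.68). For Myocd the difference was 0.03 (SE 0.40) and for Des 0.08 (SE 0.48), with intervals of -0.83 to 0.88 and -0.93 to 1.09. The median over the 7 genes was 0.12, beside 0.23 for all tested genes. No contractile gene had groups without overlap, which 8.63% of all tested genes had. In an F test over the 3 groups none of the 7 was called (Mylk adjusted p = 0.0913, Tagln 0.209, Myh11 0.238), where 2.62% of all tested genes were, while 1 of the 7, Mylk, had an unadjusted p under 0.05, as had 25.5% of all. The 3 comparisons share arrays, so their differences are not independent of each other.

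**Figure D3:**
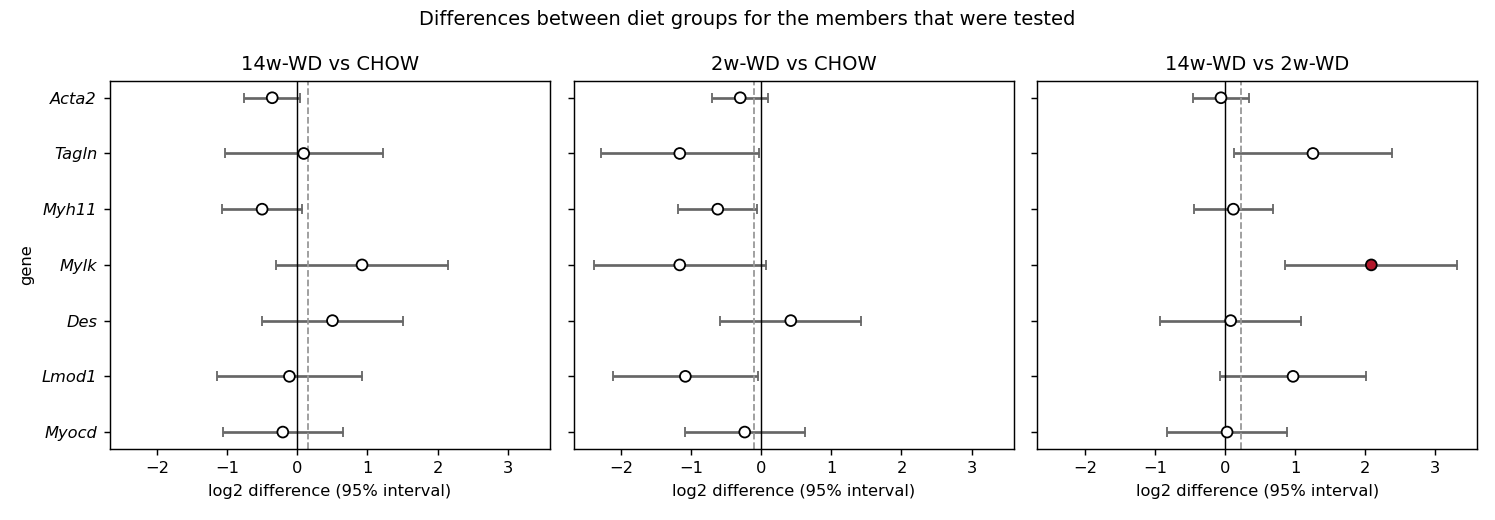
Difference between diet groups on the log2 scale for the 7 tested contractile genes in each comparison, with 95% intervals from limma; the dashed line is the median over all 11925 tested genes and the filled point is the 1 call, Mylk in 14w-WD against 2w-WD. In 2w-WD against CHOW 6 of 7 points lie below 0.

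The genes were next compared with each other over the 15 arrays. Their levels varied together in part: 11 of the 45 pairs had a Pearson r with an adjusted p under 0.05 (permutation tests with 100000 resamples, adjusted over 65 relations, of which 36 were added after seeing the data). Tagln was at the centre, with r = 0.925 to Lmod1 (rho = 0.896, permutation adjusted p = 0.00065), 0.886 to Mylk (rho = 0.843, adjusted p = 0.0013), 0.796 to Myl9 (rho = 0.775, adjusted p = 0.00563), 0.755 to Myh11 (rho = 0.65, adjusted p = 0.00812) and 0.694 to Acta2 (rho = 0.782, adjusted p = 0.0253). Lmod1 went with Mylk (r = 0.789), Myh11 (0.768), Acta2 (0.698) and Myl9 (0.677), and Myl9 with Myh11 (0.696) and Acta2 (0.654). Myocd, Des, Smtn and Cnn1 were in none of the 11 pairs. The r of Myocd with Acta2 was -0.37 and with Tagln -0.10.

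These relations held within groups for the pairs of Tagln. With the group means removed, Tagln kept an adjusted p under 0.05 with Lmod1 (r = 0.901), Mylk (0.881), Acta2 (0.837), Myh11 (0.826) and Myl9 (0.767), and no other relation did. Without the 2 arrays farthest from the median of the first gene of a pair, Tagln with Lmod1 had r = 0.868, with Mylk 0.887, with Myl9 0.653, with Myh11 0.525 and with Acta2 0.801. The adjusted p of the pair with Myh11 was then 0.222 and that of the pair with Myl9 0.105, so these relations rest in part on the extreme arrays. All points share the brightness of their array, and its part in these correlations was not tested.

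**Figure D4:**
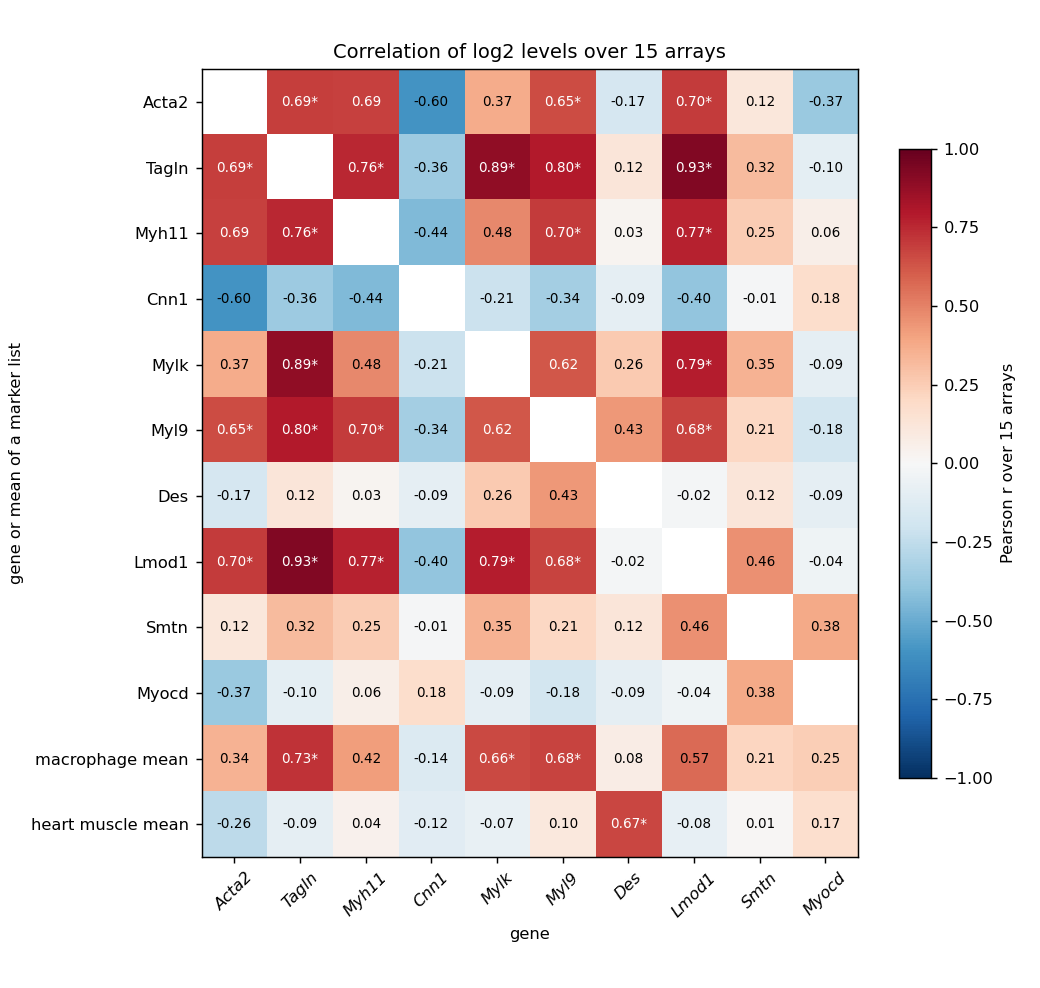
Pearson r over 15 arrays between the log2 levels of the contractile genes, and between each gene and the mean of the macrophage and heart muscle markers; a star marks an adjusted permutation p under 0.05 over 65 relations. Acta2, Tagln, Myh11, Mylk, Myl9 and Lmod1 form a block of positive values, from 0.37 to 0.93, and Des stands out in the heart muscle line with 0.67.

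Des had a relation with heart muscle that passed by Pearson r over all arrays only. Its r with the mean of 20 heart muscle genes was 0.665 (permutation adjusted p = 0.0308), and its rho was 0.632 (permutation adjusted p = 0.076). Only the probe set that stands for Des was compared. With the group means removed r was 0.656 (adjusted p = 0.072), and without the 2 farthest arrays 0.559 (adjusted p = 0.206), so the relation did not pass in either form. The heart muscle mean was 9.26 ± 1.51 for CHOW, 10.41 ± 1.11 for 2w-WD and 9.86 ± 0.83 for 14w-WD (SD, n = 5 each), with 6.74 on CHOW replicate 4. With it as a covariate, the difference of Des between 2w-WD and CHOW was -0.13, against 0.42 without. None of the other 9 genes had an adjusted p under 0.05 with the heart muscle mean, with r between -0.26 and 0.17. The macrophage mean, in contrast, had r = 0.726 with Tagln (rho = 0.796, permutation adjusted p = 0.0178), 0.676 with Myl9 (rho = 0.818, adjusted p = 0.031) and 0.657 with Mylk (rho = 0.721, adjusted p = 0.031). With group means removed the values were 0.595, 0.648 and 0.415, none with an adjusted p under 0.05. Without the 2 farthest arrays they were 0.676, 0.843 and 0.579, and only that of Myl9 passed (permutation adjusted p = 0.00628).

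The remaining contractile apparatus and its control were read from lists. In both comparisons with CHOW no gene of any list was called by limma, with a smallest adjusted p of 0.123 for 14w-WD and 0.48 for 2w-WD over the lists. All counts that follow are of 14w-WD against 2w-WD, to be read against the 10.1% of all tested genes called higher and the 1.15% called lower. Of 22 tested genes of the other smooth muscle apparatus, 1 rose and 1 fell, with a median difference of 0.04. Vcl, which encodes vinculin of the adhesions that anchor actin, averaged 10.73 ± 0.22 in 14w-WD and 9.51 ± 0.85 in 2w-WD, with a log2 difference of 1.21 (adjusted p = 0.0452). Itgb1, the beta 1 integrin, averaged 6.51 ± 0.15 in 14w-WD and 7.72 ± 0.54 in 2w-WD, with a difference of -1.21 (adjusted p = 0.0174).

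Of 15 tested genes of contraction signalling, 1 rose. This was Ppp1r12a, the targeting subunit of the phosphatase that undoes the work of Mylk, with 11.10 ± 0.26 in 14w-WD and 9.02 ± 1.61 in 2w-WD, with a log2 difference of 2.08 (limma adjusted p = 0.04). Its difference was about as large as that of Mylk. Ppp1r12b, a related subunit, had 5.92 ± 0.17 in 14w-WD and 6.38 ± 0.25 in 2w-WD and was not called.

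Of 17 tested regulators of serum response factor and of the smooth muscle state, 3 were called higher and none lower, with a median difference of 0.48; 1 of the 3, Hey1, passed the filter only through 14w-WD, where it is high, so its call adds no support. Tgfbr2, a receptor for transforming growth factor beta, had 9.66 ± 0.76 in 14w-WD and 7.41 ± 1.18 in 2w-WD, with a log2 difference of 2.25 (adjusted p = 0.023). Notch3, the Notch receptor of vascular smooth muscle, had 7.45 ± 0.38 in 14w-WD and 6.65 ± 0.31 in 2w-WD (0.80, adjusted p = 0.0368). Hey1, a transcriptional target of Notch, had 6.17 ± 0.36 in 14w-WD and 5.37 ± 0.06 in 2w-WD, where all arrays lay at or below the filter level, and its CHOW mean of 5.53 lay below that level too.

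Next came 13 tested genes known to be raised in smooth muscle that has left the contractile state, with a median of 0.46. Of these, 4 were called higher and none lower. They were Fn1, which encodes fibronectin (0.92, adjusted p = 0.0196), Myh10, a non-muscle myosin (1.67, adjusted p = 0.0227), Mgp, a matrix inhibitor of calcification (0.46, adjusted p = 0.0309), and Col8a1, a short-chain collagen (1.32, adjusted p = 0.0439). Macrophages, fibroblasts and endothelium also express several of these. Among 14 tested paralogs of the contractile genes 2 were called higher, Myh10 and Actg1, the cytoplasmic gamma actin (0.36, adjusted p = 0.027), and none lower. Actc1, the heart actin, had a difference of -0.25 (adjusted p = 0.874).

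Some markers of other cells differed between the same groups. Of 13 tested fibroblast and pericyte genes 4 were called higher and none lower: Cspg4, the NG2 proteoglycan of mural cells (2.75, adjusted p = 0.0232), Pdgfra, a receptor of platelet-derived growth factor (1.95, adjusted p = 0.0291), Fbln1, a matrix fibulin (1.64, adjusted p = 0.0161) and Col1a1, a chain of type I collagen (1.05, adjusted p = 0.0402). A higher mean in 14w-WD was found for 11 of the 13, with a list median of 0.48. Abcc9 (-0.50) and Rgs5 (-0.18), listed for pericytes, had lower means and were not called. The summed intensity over the list ran from 43936 to 61675 in 14w-WD and from 36136 to 48967 in 2w-WD. Of 14 macrophage genes 1 rose, Tyrobp, a signalling adaptor (0.38, adjusted p = 0.0261), with sums of 98376 to 114365 in 14w-WD and 81011 to 104546 in 2w-WD. Of 7 endothelial genes 1 was called higher, Nos3, the endothelial nitric oxide synthase (0.70, adjusted p = 0.0494). Only 3 of the 7, Nos3 included, had a higher mean in 14w-WD, and the list median was -0.05. A further 5 listed ones, Pecam1 among them, lay below the filter. Of 20 heart muscle genes none was called, with a median of -0.43 and sums of 36644 to 109541 in 14w-WD and 72418 to 150367 in 2w-WD. Its smallest p-values were those of Ttn, the giant spring protein titin (-1.49, adjusted p = 0.218), and Tnnt2, cardiac troponin T (-1.13, adjusted p = 0.306). Of 3 tested skeletal muscle genes 1 was called higher, Mylpf, a myosin light chain (0.90, adjusted p = 0.0466). Mylpf lay at or below the filter level on all 5 arrays of 2w-WD. It was the only 1 of the 3 with a higher mean in 14w-WD, and the list median was -0.03. Acta1 and the skeletal myosins lay below the filter. The part of these cells, and of array brightness, in the differences of the contractile genes was not tested beyond the covariates given above.

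**Figure D5:**
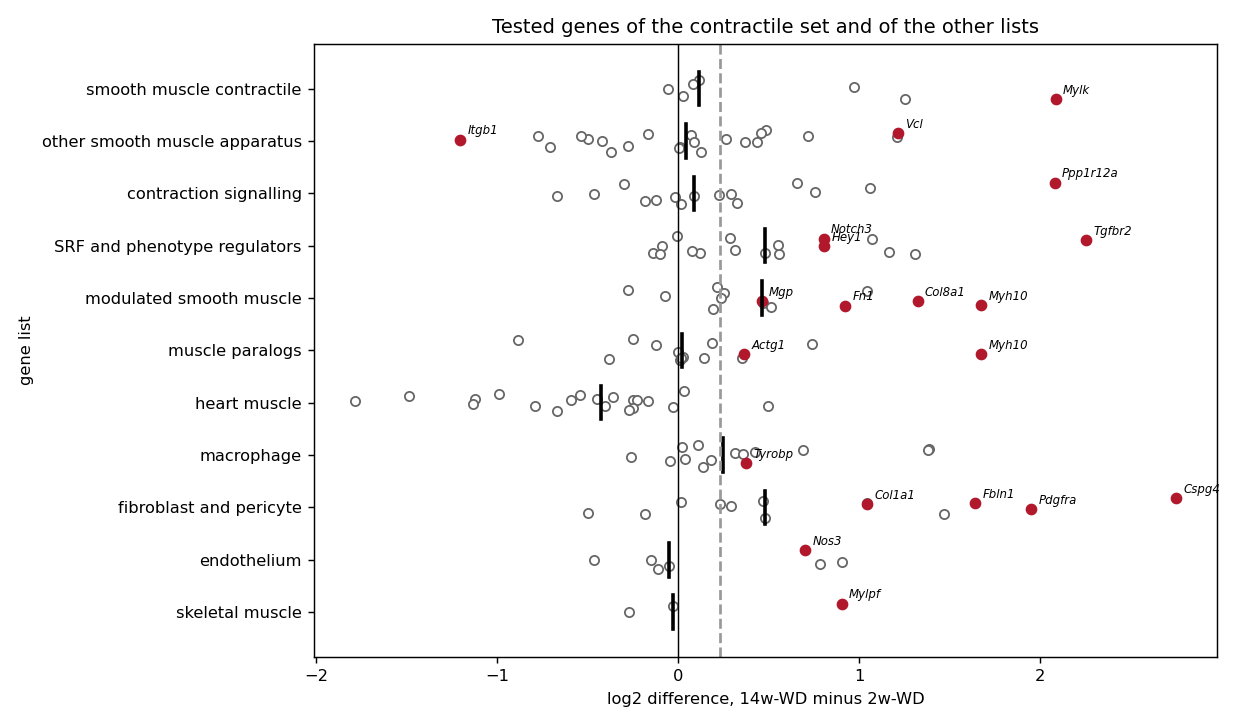
Difference between 14w-WD and 2w-WD on the log2 scale for each tested gene of the contractile set and of the other lists; short vertical bars are list medians, the dashed line is the median of all tested genes at 0.23 and filled points are genes called at an adjusted p under 0.05. Called genes lie to the right of 0 in every list that has any, apart from Itgb1.

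Genes outside the set were ranked by likeness to it, measured as Pearson r over the 15 arrays with the mean of the standardised levels of the 7 tested contractile genes. Among 11918 genes the most alike were Clec2d (r = 0.980), Wdr74 (0.926), Spns1 (0.916), Zfp790 (0.912) and Pigx (0.902). These 5 were picked as the highest of the ranking, and the part of array brightness in it was not tested. The mean includes Des and Myocd, which were in none of the 11 pairs above. Spns1 lay at or below the filter level on 3 arrays of CHOW, 4 of 2w-WD and 1 of 14w-WD. Clec2d encodes a lectin of immune cells, and its means were 7.43 ± 0.93 for CHOW, 6.62 ± 0.63 for 2w-WD and 7.40 ± 0.69 for 14w-WD. None of the 5 was called in any comparison. The mean of the standardised levels was highest on CHOW replicate 1 (1.59) and lowest on 2w-WD replicate 2 (-0.79).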

How the data were processed

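Per the labels' protocols, lesional macrophages were captured by laser, and their RNA was extracted, amplified and labelled with biotin; per the series text it was hybridised to Affymetrix arrays of the mouse genome. The table deposited by the authors holds 1 linear intensity for each of 45037 probe sets and each of 15 arrays. The sources used here do not say by what method the authors summarised, corrected or scaled the intensities. Probe sets were named through GEO's annotation of the array: 34945 had 1 gene, 932 several and 9160 were unnamed here. Intensities were turned into log2(intensity + 16), and each of 18193 genes was represented by its brightest probe set. Genes below a mean of 5.66 were left out. The 11925 others were fitted with limma 3.58.1 under R 4.3.3 (lmFit, then eBayes with its trend option), with diet as the only term and every array included, and p-values were adjusted over all of them. Tests were two-sided. The fit was tested on simulated data. For arrays no counting depth exists, so precision is limited by how many arrays there are and by how dim a probe set is.

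The contractile genes and the other lists were chosen with earlier results of these data known. Named were all 10 contractile genes; in each other list up to 4 called genes by smallest p, or up to 2 with the smallest unadjusted p where none was called, of which those of both comparisons with CHOW are given by their smallest adjusted p alone; Myh6, Actc1, Adgre1 and Cd68 always; and the 5 genes most like the contractile mean. Of these Cd68 had a log2 difference of 0.69 between 14w-WD and 2w-WD (limma adjusted p = 0.156). Values of Abcc9 and Rgs5 are given as the tested fibroblast and pericyte genes with a lower mean in 14w-WD than in 2w-WD. Promoter windows came from RefSeq, build GRCm38.p6. Alternatives changed the pseudocount, the filter, the scaling, the choice of probe set, the arrays, their weights, the replicate block and the covariates.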

Additional observations from a re-analysis of the deposited data

Results flagged for a closer look

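Of the 30 groups of 5 arrays looked at, 10 genes in 3 diets each, 4 held an array whose gap to its nearest neighbour was over 0.71 of the range of the group. Chance gives such an array in about 1 group in 20. Of these, 3 lay on the same array, replicate 4 of 14w-WD. Acta2 had 12.33 there, below 13.20 on the next array, Mylk had 6.98, below 8.94, and Lmod1 had 4.50, below 6.34. Tagln was also lowest on that array, at 5.70, with a gap that was not as large. It was the dimmest 14w-WD array, with 22.5% of its probe sets over 100, and its heart muscle mean was 10.15 and its macrophage mean 11.52; their part in its low contractile levels was not tested. The other was Acta2 on 2w-WD replicate 5, with 13.38, above 13.22 on the next array, in a group whose other arrays lay within a narrow band.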

How the results depend on the processing

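Over the settings tried, the count of contractile genes called in 2w-WD against CHOW stayed at 0. In 14w-WD against CHOW it was 1 with array weights (Mylk, 1.47, adjusted p = 0.0238) and 0 otherwise. In 14w-WD against 2w-WD it was 1 in the fit reported and 3 with array weights (Mylk 2.57, Tagln 1.59, Lmod1 1.22). It was 0 with the mean of the probe sets of a gene (Mylk 0.98), 0 with the macrophage mean as a covariate (Mylk 1.34) and 0 with the bright share as a covariate (Mylk 0.47), a setting chosen after seeing the data. In the F test it was 2 with array weights (Mylk and Tagln) and 1 with a replicate block (Mylk). Over all genes the F test called 312 in the fit reported, 3602 with array weights and 996 with the block. With array weights 2234 of all tested genes were called in 14w-WD against CHOW and 3839 in 14w-WD against 2w-WD. Leaving out 1 array at a time gave 0 to 3 contractile calls for 14w-WD against 2w-WD, 0 to 1 in the F test and 0 in the other comparisons. The 3 calls came without 14w-WD replicate 4, where 1609 of all genes were called. The F test called Mylk without CHOW replicate 1, 2w-WD replicate 1 or 14w-WD replicate 4. All genes called there numbered 890, 2258 and 410. Of the relations between genes and with marker means, 15 passed, but 5 without the 2 farthest arrays and 5 with group means removed. Whether the replicate numbers pair the arrays is not settled. In their deviations from the group means, same-numbered arrays of different diets had a mean r of 0.0925 (-0.201 to 0.468, 15 pairs). Arrays of other numbers had a mean r of -0.023 (-0.389 to 0.391, 60 pairs). An r over 0.1 was found in 7 of the 15 pairs and in 13 of the 60. Of the 15 arrays, 6 correlated best with their own number. With the replicate block the difference of Mylk in 14w-WD against 2w-WD stayed called (limma adjusted p = 0.0135). The contractile genes called in the 3 pairwise comparisons did not change with it. Over all genes the block raised the calls from 1338 to 2122 in 14w-WD against 2w-WD, and from 1 to 20 in 14w-WD against CHOW.

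None of the differences that turned sign was called in the fit reported, and the cause was not tested. In 14w-WD against CHOW, Tagln was -0.23 with quantile normalization, -0.18 with the macrophage mean and -0.97 with the bright share. There Mylk was -0.36 with that share, Lmod1 was 0.60 with array weights and Myocd was 0.093 with the mean of probe sets. In 2w-WD against CHOW, Des was -0.0053 with array weights and -0.13 with the heart muscle mean, and Myocd was 0.014 with the mean of probe sets and 0.0045 with the macrophage mean. In 14w-WD against 2w-WD, Acta2 was 0.017 with the mean of probe sets and 0.043 with array weights. Myh11 was -0.20 with the macrophage mean, and Des was -0.013 with a pseudocount of 64, -0.0074 with quantile normalization and -0.11 with the macrophage mean. Myocd was -0.18 with quantile normalization, -0.046 with median centring, -0.23 with array weights and -0.30 with the macrophage mean. With the bright share, Tagln was -0.085, Myh11 -0.28, Des -0.50, Lmod1 -0.055 and Myocd -0.12. Without 1 array, signs turned for Tagln (-0.20 to 0.55), Lmod1 (-0.49 to 0.32), both in 14w-WD against CHOW, and Myocd (-0.46 to 0.012) in 2w-WD against CHOW. They also turned for Acta2 (-0.15 to 0.15), Des (-0.22 to 0.45) and Myocd (-0.27 to 0.25) in 14w-WD against 2w-WD.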
